A study of Homo sapiens with 6 samples.

Results

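Human miRNAs carry numbers in order of their discovery, and those from 1000 upward were mostly found by deep sequencing after the abundant and widely conserved families were known. A miRNA is cut from a hairpin, and the arm that is loaded into the silencing complex (the guide strand) finds its target mRNAs mainly through the seed, bases 2 to 8 from the 5′ end. Among the late numbers are mirtrons, whose hairpins are short introns released by splicing, and names whose sequence overlaps a tRNA, snRNA, snoRNA, rRNA or Y RNA.

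Described here are 83 guide-strand probes for human miRNAs numbered 1000 or above, of 386 guide-strand probes and 581 measured probes in all. They were chosen by name: star strands (marked with an asterisk), precursor probes and 11 numbers set aside were left out, and 7 of those numbers were on the array. Guide strand is used here for any mature name without an asterisk, so both arms of miR-1207, miR-1224 and miR-1225 count. Which arm was loaded was not measured. The bound at 1000 and the numbers set aside were selected with the Mock and HDAC6 values of these arrays known, so the counts of changed members are a description. On either side of the bound stood miR-1180, with a log2 fold change of 0.88, and miR-943, with 0.30. In the deposited names 12 members are written "mir" in lower case, a form that the table also uses for other mature probes.

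The cells were Hep3B, an established human hepatocellular carcinoma line. They received the empty plasmid pcDNA3.1 (Mock, 3 arrays) or pcDNA3.1 carrying HDAC6, a mainly cytoplasmic deacetylase of tubulin (HDAC6, 3 arrays), by lipofection, so both groups share the plasmid and the transfection. Per the labels, RNA of 3 extractions per condition was pooled, so the 3 arrays of a group may be repeats of 1 pool and the p-values then measure only technical spread. HDAC6 mRNA was not measured on this miRNA chip.

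Over the 83 probes, Pearson's r was 0.905 to 0.973 between arrays within a group and 0.812 to 0.91 across groups, where the points share their array and normalization. Mock 3 stood apart within its group: 10 of the 83 probes lay more than 1 log2 unit below both other Mock arrays there, against 0 in Mock 1 and Mock 2 and 0 to 1 in the HDAC6 arrays. Over all 581 probes this was so for 26 in Mock 3 and for 1 to 5 on the other arrays. On the high side, 16 of the 581 probes in HDAC6 2 and 9 in HDAC6 1 lay more than 1 log2 unit above both other HDAC6 arrays. The other arrays had 2 to 5 such probes. Calls that Mock 3 changed are given below with and without it.

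Shown first, as far as available, are mature sequences of the members with the largest called changes, so that each value can be set beside its seed. They are RefSeq entries (GRCh38.p14) with the exact name of the probe, which 36 of the 83 members have, written 5′ to 3′ with the seed in capitals. The first 8 belong to probes that were higher in HDAC6.
miR-1827: uGAGGCAGuagauugaau
miR-1224-5p: gUGAGGACucgggaggugg
miR-1203: cCCGGAGCcaggaugcagcuc
miR-1202: gUGCCAGCugcagugggggag
miR-1299: uUCUGGAAuucugugugaggga
miR-1469: cUCGGCGCggggcgcgggcucc
miR-1225-5p: gUGGGUACggcccagugggggg
miR-1181: cCGUCGCCgccacccgagccg
The next 3 belong to probes that were lower.
miR-1248: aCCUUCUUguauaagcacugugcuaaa
miR-1284: uCUAUACAgacccuggcuuuuc
miR-1321: cAGGGAGGugaaugugau
The last 4 are the opposite arms of miR-1224 and miR-1225, and a pair of names that share a long run of bases.
miR-1224-3p: cCCCACCUccucucuccucag
miR-1225-3p: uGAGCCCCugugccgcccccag
miR-1246: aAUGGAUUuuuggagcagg
miR-1290: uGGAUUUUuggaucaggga

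The 36 matched members had 36 different seeds, and none was shared with another mature probe of the array that could be matched by exact name. MiR-1246 and miR-1290 have 12 bases in a row in common, UGGAUUUUUGGA, the longest run shared by any pair of matched members, and their probes may therefore bind each other's target. The other shared runs were 9 bases or shorter. Base composition was not compared over the members, because 43.4% had a sequence under their own name and such a comparison is void below 80%.

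The rises come from many loci. MiR-1827 lies at chr12:100189932-100189949 on the plus strand, outside any gene of the RefSeq table, and miR-1299 at chr9:40929010-40929031 on the minus strand, also outside one. MiR-1224-5p lies at chr3:184241405-184241423 (plus strand) within VWA5B2, and miR-1225-5p at chr16:2090263-2090284 (minus strand) within PKD1, the polycystic kidney disease gene. MiR-1203 lies within SKAP1 (chr17:48156486-48156506, minus strand), miR-1181 within CDC37 (chr19:10403505-10403525, minus strand) and miR-1469 within NR2F2 (chr15:96333261-96333282, plus strand). MiR-1202 lies within a long non-coding RNA gene (chr6:155946809-155946829, plus strand). Among the falls, miR-1248 lies within EIF4A2, a translation initiation factor gene (chr3:186786675-186786701, plus strand), miR-1284 within FOXP1 (chr3:71542039-71542060, minus strand) and miR-1321 in no listed gene (chrX:85835832-85835849, plus strand). The table gives gene spans, so exon and intron were not told apart.

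Of the 83 members, 24 rose and 6 fell in HDAC6, and 53 did not pass (limma over all 581 probes, Benjamini-Hochberg adjusted p under 0.05). Over the whole array 45.8% of the probes were called, 21.3% higher and 24.4% lower, whereas the members were called in 36.1% of cases, 28.9% higher and 7.23% lower. The 2 groups of 3 arrays did not overlap for 34 members (41%), against 56.8% of all probes. The median log2 fold change was 0.27 over the members, with miR-1978 entered at 0, and 0.31 without that probe. It was -0.09 over all probes and -0.44 over the 296 guide strands numbered under 1000. No test of the members against other probes was made. In bulk RNA, fewer cells with a miRNA and less of it per cell cannot be told apart. At least a 2-fold difference together with the call was seen in 12 rises and 4 falls. Over all 581 probes it was seen in 70 rises and 98 falls.

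The count of rises lay between 17 and 24 when 1 array at a time was left out. The count of falls moved more: it was 3 without Mock 1, Mock 2 or HDAC6 1, 10 without Mock 3, 4 without HDAC6 2 and 1 without HDAC6 3. With arrays centred on control probes 14 members rose and 3 fell, and with the quantile normalization repeated 24 rose and 3 fell.

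MiR-1827 showed the largest change. Its normalized log2 signal was 8.30, 8.61 and 9.01 on the 3 Mock arrays and 10.72, 11.55 and 10.78 on the HDAC6 arrays. It ranked 138 to 195 among the 581 probes in Mock and 19 to 42 in HDAC6. The groups were separated by more than the whole range within either, and the difference of 2.38 (SE 0.296, 5.19-fold) had a limma adjusted p of 0.00272. Without any 1 array it lay between 2.11 and 2.56.

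MiR-1224-5p, the 5′ arm of a mirtron, read 9.00, 9.27 and 9.43 in Mock and 10.48, 11.37 and 10.70 in HDAC6, a 3.06-fold rise (SE of log2 0.273, limma adjusted p = 0.00384). MiR-1910 read 10.44, 10.44 and 9.76 in Mock against 11.80, 11.80 and 11.24, a 2.64-fold rise (SE 0.271, adjusted p = 0.00532). All 3 HDAC6 arrays lay above all 3 Mock arrays for both. MiR-1203 had the tighter values 8.46, 8.55 and 8.35 in Mock and 9.63, 9.97 and 9.77 in HDAC6, which is 2.53-fold (SE 0.188, adjusted p = 0.00272).

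MiR-1202, known in the brain for repressing the glutamate receptor gene GRM4, read 7.70, 7.86 and 7.98 in Mock and 9.14, 9.05 and 9.10 in HDAC6. The gap between the groups was several times the spread within them, and the rise was 2.39-fold (SE of log2 0.18, limma adjusted p = 0.0028). MiR-1299 read 9.47, 9.53 and 9.61 in Mock, and 10.94, 10.34 and 10.93 in HDAC6. MiR-1469 read 9.96, 9.83 and 10.02 in Mock, and 11.13, 10.75 and 11.27 in HDAC6. For these last members the lowest HDAC6 array was HDAC6 2 and still lay above every Mock array, and their rises were 2.29-fold and 2.16-fold, each with a limma adjusted p of 0.00487.

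MiR-1915, reported elsewhere to repress the survival gene BCL2, read 10.45, 9.64 and 10.04 in Mock and 11.18, 10.71 and 11.59 in HDAC6, a 2.17-fold rise (limma adjusted p = 0.0187). Its highest Mock and lowest HDAC6 arrays were close, and the call was lost without Mock 2 (0.0545), HDAC6 1 (0.0523) or HDAC6 3 (0.0636). MiR-1225-5p, from a mirtron in PKD1, read 6.55, 6.61 and 6.94 in Mock and 7.53, 8.27 and 7.60 in HDAC6 (2.14-fold, adjusted p = 0.0114). MiR-1181 read 8.19, 7.98 and 8.73 in Mock and 9.19, 9.66 and 9.28 in HDAC6 (2.11-fold, adjusted p = 0.0119). Neither of these lost its call when any 1 array was left out.

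The other 14 rises were smaller, from a log2 fold change of 0.68 for miR-1226 to 1.01 for miR-1909. Of all 24 rises, 17 passed in each of the 6 fits that left out 1 array, and 13 passed at 0.05 in every alternative fit that included them. MiR-2277 and miR-1292 had the narrowest values: miR-2277 read 7.08, 6.91 and 6.85 in Mock and 7.95, 7.97 and 7.94 in HDAC6, and miR-1292 read 6.03, 5.96 and 5.99 against 6.76, 6.75 and 6.77. These were chosen after their values were seen. MiR-1292 was dim, with ranks from 540 to 572 of 581 in Mock, and its call was lost with control-probe centring (0.0664).

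The 6 falls included 4 names that overlap another small RNA. MiR-1248, which overlaps a snoRNA, was the brightest of them and read 11.52, 11.50 and 11.76 in Mock and 10.10, 11.07 and 9.68 in HDAC6. The Mock arrays agreed closely while the HDAC6 arrays spread over more than 1 log2 unit, and the fall was 2.48-fold (SE of log2 0.345, limma adjusted p = 0.0177). The call was lost without HDAC6 1 (0.0538) or HDAC6 3 (0.0534). MiR-1259, a name later withdrawn from miRBase, read 9.41, 9.91 and 10.25 in Mock and 8.47, 9.33 and 8.27 in HDAC6, with 1 HDAC6 array just below the lowest Mock array. Its log2 fold change was -1.17 (SE 0.338, adjusted p = 0.025), and the call was lost without Mock 2, Mock 3, HDAC6 1 or HDAC6 3 (0.0605 to 0.0851).

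MiR-1274a and miR-1274b, names that correspond to fragments of lysine tRNA, are near-identical, so their probes may read the same RNA. MiR-1274b read 7.63, 6.68 and 7.07 in Mock and 6.04, 5.88 and 6.06 in HDAC6, 2.19-fold lower (SE of log2 0.265, limma adjusted p = 0.0115). MiR-1274a read 6.87, 6.22 and 6.86 in Mock and 5.89, 5.81 and 6.08 in HDAC6, and fell by 0.72 (SE 0.238, adjusted p = 0.0377). Both were near the dim end of the array in HDAC6, between ranks 486 and 556 of 581. MiR-1274b was the 1 fall of 6 that passed in every fit without 1 array. The miR-1274a call held without Mock 2 and was lost without any other array, with adjusted p from 0.0641 to 0.12.

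MiR-1284 read 7.48, 7.75 and 6.49 in Mock and 6.05, 6.14 and 6.23 in HDAC6, and fell by 1.10 (SE 0.325, limma adjusted p = 0.0265). MiR-1321 read 7.19, 6.76 and 6.35 in Mock and 5.99, 5.81 and 5.99 in HDAC6, and fell by 0.84 (SE 0.248, adjusted p = 0.0267). In both, Mock 3 was the lowest Mock array and lay closest to the HDAC6 values. Without Mock 3 the calls held, while leaving out any other array ended them, with adjusted p from 0.0562 to 0.0858 for miR-1284 and from 0.0568 to 0.0789 for miR-1321. A log2 offset at the 25th percentile of the signals also ended the calls of miR-1284, miR-1321 and miR-1274a and brought them to -0.60, -0.40 and -0.34.

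By origin, the 12 measured mirtron probes had 4 rises (33.3%, against 21.3% of all probes) and 0 falls, with a median log2 fold change of 0.32, and limma at an unadjusted p under 0.05 gave 5 higher and 0 lower. The rises were miR-1224-5p, miR-1225-5p, miR-1228 (0.80, adjusted p = 0.0155) and miR-1226 (0.68, adjusted p = 0.0291). MiR-1228 read 7.22, 7.37 and 7.04 in Mock and 7.92, 8.25 and 7.85 in HDAC6. The miR-1228 and miR-1226 calls were lost with control-probe centring (0.0742 and 0.132), which left 2 rises. The miR-1226 call was also lost without any array but Mock 2 (0.0561 to 0.0929). Among the rest, miR-1231, miR-1233, miR-1229 and miR-1238 stood at 0.43, 0.16, 0.00 and 0.21, and miR-1236 and miR-1237 at -0.38 and -0.16. Without Mock 3, miR-1236 was called lower at -0.69 (adjusted p = 0.0466) and miR-1231 higher at 0.60 (0.041).

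Of 15 probes whose names overlap another small or structural RNA, 4 fell (26.7%, against 24.4% of all probes) and 0 rose (limma's unadjusted p was under 0.05 for 6 lower and 1 higher). Their median was -0.56 with miR-1978 entered at 0, and -0.60 over the other 14. Falls numbered 1 without HDAC6 3 and 2 without HDAC6 1 or with control-probe centring. They numbered 6 with array weights or with the replicate block. With all arrays the log2 fold change was negative for 12 probes and positive for 2. Not every member went down: miR-1308, a tRNA-related name, read 12.20, 11.02 and 11.25 in Mock and 12.07, 12.55 and 12.33 in HDAC6. Mock 1 lay among the HDAC6 values, and the difference of 0.83 did not pass (adjusted p = 0.0717), but without Mock 1 it was 1.18 and passed (0.0151). MiR-1246, which overlaps U2 snRNA and is induced by p53, read 11.24, 11.07 and 11.05 in Mock and 11.39, 10.48 and 11.45 in HDAC6, with a difference of -0.01 (SE 0.285, adjusted p = 0.981). MiR-1290, with which it shares its long run of bases, stood at 0.85 (adjusted p = 0.0607), and passed without HDAC6 2 at 1.09 (0.031). MiR-1975 and miR-1291 stood at -0.07 and -0.01. MiR-1280, miR-1977 and miR-1826 stood at -0.64, -0.56 and -0.39 and did not pass, but miR-1280 passed without HDAC6 2 at -0.97 (0.0119).

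At the PVT1 locus, a long non-coding RNA gene beside MYC, 1 of 4 probes rose (25%, against 21.3% of all probes). MiR-1207-5p read 11.69, 12.15 and 11.76 in Mock and 12.77, 12.90 and 12.81 in HDAC6, a 1.94-fold rise (limma adjusted p = 0.00782), and moved from ranks 10 to 15 in Mock to ranks 5 to 6 in HDAC6. MiR-1207-3p, from the opposite arm, read 6.59, 6.86 and 6.25 in Mock and 6.17, 6.21 and 6.48 in HDAC6, with overlapping groups and a log2 fold change of -0.28 (adjusted p = 0.336). MiR-1204 stood at 0.58 (adjusted p = 0.103) and miR-1208 at 0.50 (0.122). MiR-1208 passed without Mock 3 at 0.68 (0.0434), and both passed with array weights.

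The 52 probes in none of these groups had 19 rises (36.5%) and 2 falls (3.85%), with a median of 0.38. Over all probes 21.3% rose and 24.4% fell. Grouped by number, a division made after the values were seen, 5 of the 6 probes from miR-1908 to miR-1915 rose (83.3%). The median of the 6 was 0.90, and the sixth, miR-1913, stood at 0.17 (limma adjusted p = 0.545). MiR-1908, encoded in an intron of the fatty acid desaturase gene FADS1, read 8.24, 8.10 and 8.17 in Mock and 8.93, 9.10 and 8.84 in HDAC6 (adjusted p = 0.011). The miR-1908 and miR-1914 calls were lost with control-probe centring (0.0654 and 0.0656). MiR-1914 also lost its call without HDAC6 1 or HDAC6 3 (0.0523 and 0.0524), and miR-1915 did so in 3 fits that left out 1 array. MiR-1909 and miR-1910 passed at 0.05 in every alternative fit. From miR-1180 to miR-1208, 5 of 9 rose (55.6%). From miR-1246 to miR-1308, 4 of 34 rose (11.8%) and 5 fell (14.7%), with a median of 0.02. From miR-1973 to miR-1979, 0 of 7 passed (limma, 1 at an unadjusted p under 0.05). These include miR-1978, whose change could not be measured, which leaves 6.

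In 8 hairpins both arms had a probe, which gives a second reading of the same precursor. All 8 first arms, the guide-strand or 5′ probe, had risen, where 21.3% of all probes rose. In 3 hairpins the other arm rose as well: miR-1226* rose by 1.32 (SE 0.23), miR-1228* by 0.78 (SE 0.19) and miR-1909* by 1.25 (SE 0.211), with limma adjusted p of 0.00409, 0.0133 and 0.00384. The star probe miR-1228* was much brighter than miR-1228 and read 10.88, 11.24 and 11.06 in Mock and 11.73, 11.93 and 11.87 in HDAC6. MiR-1909* read 8.86, 9.32 and 9.44 in Mock and 10.45, 10.46 and 10.45 in HDAC6. In both star probes every HDAC6 array lay above every Mock array.

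The other arm did not pass in 5 hairpins. MiR-1225-3p, miR-1914* and miR-1915* stood at 0.55, 0.39 and 0.46 (limma adjusted p = 0.0637, 0.151 and 0.134). MiR-1224-3p read 6.70, 6.32 and 6.99 in Mock and 6.44, 6.18 and 6.87 in HDAC6, at -0.17 (adjusted p = 0.628). The opposite arm, miR-1224-5p, had the second largest rise of all members. With miR-1207-3p this made 2 hairpins whose arms differed in sign. Differences between arms were not tested. The array held 0 precursor probes numbered 1000 or above.

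The members' means over all arrays ran from 5.95 to 15.8, against 5.34 to 15.8 for all probes. MiR-1978, a name later withdrawn from miRBase, held rank 1 on all 6 arrays and the value 15.78 on each, so its change could not be measured. MiR-1207-5p, miR-1308, miR-1246 and miR-1248 followed, with means over all arrays of 12.35, 11.90, 11.12 and 10.94. Below miR-1978, neighbours in this order overlapped on single arrays, and probes differ in binding, so it is an order of signal only. The dimmest member was miR-1253, with a mean of 5.95. Among the 28 brightest members 9 rose (32.1%) and 2 fell (7.14%). Among the next 28, 10 rose (35.7%) and 0 fell (limma, 10 higher and 1 lower at an unadjusted p under 0.05). Among the 27 dimmest 5 rose (18.5%) and 4 fell (14.8%), against 21.3% and 24.4% of all probes. For the members the SD between replicate arrays had a median of 0.344 among the Mock and 0.243 among the HDAC6 arrays, and for all probes of 0.294 and 0.242.

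Several results changed when Mock 3 was left out. MiR-1282 had the lowest log2 fold change of all members, -1.85 (SE 0.735), and did not pass (limma adjusted p = 0.0732). It read 10.79 and 10.67 in Mock 1 and Mock 2 but 7.84 in Mock 3, and 8.36, 7.48 and 7.91 in HDAC6, so that Mock 3 lay within the HDAC6 values. Without Mock 3 it fell by 2.81 (adjusted p = 0.00327). With all arrays it also passed with median centring (0.0479), control-probe centring (0.0301), array weights (0.014) and the replicate block (0.0488). MiR-1260 read 10.58, 10.60 and 9.03 in Mock and 9.20, 9.25 and 8.72 in HDAC6, at -1.01 with all arrays (0.0892) and -1.53 without Mock 3 (0.00575). With all arrays it also passed with the replicate block (0.0335) and array weights (0.0156). MiR-1979 stood at -1.18 with all arrays (0.0886) and at -1.67 without Mock 3 (0.0197).

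The same held for miR-1287, at -0.58 with all arrays and -1.04 without Mock 3 (limma adjusted p = 0.0232), and for miR-1468, at -1.08 and -1.43 (0.0305). MiR-1979 and miR-1468 also passed without HDAC6 1 (0.0366 and 0.03) and, with all arrays, with the replicate block (0.0271 and 0.0174). Thus 5 of the 10 probes with a low Mock 3 value were called lower without that array. The 10 were picked for that low value, so leaving Mock 3 out had to move each log2 fold change downward. The other 5, miR-1272, miR-1293, miR-1294, miR-1306 and miR-1976, did not pass either way, and miR-1293 turned from 0.53 to -0.16. MiR-1322 read 7.16 in Mock 3, its lowest array, and 8.72, 8.66 and 8.44 in HDAC6. It rose by 0.87 with all arrays (0.0326) and lost its call without Mock 3, at 0.58 (0.0561). That call was also lost without HDAC6 1, HDAC6 2 or HDAC6 3 (0.0984, 0.0743 and 0.0615) and with control-probe centring (0.0654). Single HDAC6 arrays also stood out: miR-1180 read 12.10 in HDAC6 1 against 10.20 and 10.43, and miR-2113 read 9.79 in HDAC6 2 against 7.31 and 7.33. Neither passed (adjusted p = 0.159 and 0.297), but miR-1180 passed with array weights at 1.53 (0.0392). Why single arrays departed was not tested.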

How the data were processed

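Hep3B miRNA was measured on 3 Mock and 3 HDAC6 GenoExplorer microRNA chips, grouped by sample title. Per the labels, the authors read the arrays with GenePix Pro 5.0, removed poor spots by eye, averaged 3 spots per probe, and quantile normalized and class-filtered the signals in GenePlex 3.0. How background was corrected and what the filter removed is not given in the sources used here. Deposited values run from 3.52 to 15.78, a range read here as a log2 scale, which no label states. Quantile normalization hides any change in total miRNA. Of 582 rows 1 was blank and left out. The number of arrays limits the precision, and signal over background is unknown.

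The HDAC6 arrays were set against the Mock arrays with lmFit and eBayes of limma 3.58.1 (R 4.3.3, two-sided). The Benjamini-Hochberg adjustment ran over the 581 probes, of which 8 are controls, and calls were made at 0.05. The code was tested on simulated data with 200 probes changed. It recovered 0% of changes of 0.5 log2 units, 65.5% of 1 and 96.5% of 2. A member that did not pass is therefore not shown to be unchanged. Members and lists were chosen with earlier results of these data known. Named probes were the 10 largest rises and falls without overlap, the 5 brightest, miR-1207, miR-1827, miR-1978, and up to 3 per list; others were chosen after their values were seen. Lists were matched by name among the members. Alternatives were 3 other scalings, brighter probes, an offset, a replicate block, a trend with robust priors, weighted arrays, a fit to mature probes, a threshold of 0.01 and leaving out each array.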

Additional observations from a re-analysis of the deposited data

How the results depend on the processing

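The 24 rises became 14 with arrays centred on the 7 small RNA control probes and 12 at an adjusted p under 0.01, and lay between 17 and 24 without 1 array. The 6 falls became 3 with control-probe centring, with the offset or when quantile normalization was repeated, 2 among the brighter probes and 0 at an adjusted p under 0.01 (limma, 10 lower at an unadjusted p under 0.05), and lay between 1 and 10 without 1 array. With the replicate block there were 24 rises and 11 falls. Deviations from the group means correlated at r = 0.16, -0.0865 and 0.192 between same-numbered arrays, and at -0.292 to 0.191 between differently numbered ones. With 3 arrays per group these values cannot decide whether the numbers pair the arrays. Median centring, trend and robust priors, array weights and mature probes alone kept both counts within 1.5 times. The members' median stayed between 0.18 and 0.42. The median of all probes shifted by 0.16 with repeated quantile normalization, by 0.22 among brighter probes and by -0.15 among mature probes alone. MiR-1246 changed sign, to 0.0708 with control-probe centring, 0.13 with array weights, and between -0.18 and 0.30 without 1 array.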
